A study of Mus musculus with 8 samples.

Results

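Red cell precursors survive and multiply on 2 cytokine signals. Erythropoietin binds its receptor, EPOR, which has no kinase of its own and works through the bound tyrosine kinase JAK2. JAK2 phosphorylates the transcription factors STAT5A and STAT5B, which move to the nucleus and switch on survival genes together with inhibitors that damp the signal. KIT, the receptor for stem cell factor, is itself a tyrosine kinase and acts in earlier progenitors before it is turned off as red cells mature. KLF1 is an erythroid transcription factor with 3 zinc fingers that recognises GC-rich CACC-box sequence, and the E339K change in its second finger models a human congenital dyserythropoietic anaemia (CDA). The 10 genes described here are the receptors Epor and Kit, the kinases Jak2 and Lyn, the transcription factors Stat5a and Stat5b, the feedback inhibitors Cish, Socs1 and Socs3, and the survival kinase Pim1. They were chosen by name as members of these pathways. Of these 10 genes, 7 had a row among the 11364 genes of the RNA tables, and 6 were the closest transcription start site (TSS) of at least 1 ChIP-seq site. Together the 6 genes held 16 of 5551 sites.

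The cells were mouse K1 cells, an immortalised erythroid line from Klf1 null fetal liver, and K1-CDA-ER cells, the same line carrying a retroviral CDA-KLF1 (E339K) transgene fused to the oestrogen receptor ligand-binding domain, here KLF1-E339K-ER. 4-hydroxytamoxifen (4-OHT) moves the fusion protein into the nucleus. Newly made RNA was labelled with 4-thiouridine (4sU), for 30 min at 500 µM per the labels, in 6 libraries. The methods of the study give another unit for this dose and another time. These were 3 K1-CDA-ER libraries, 1 from each of 3 clones, given 200 nM 4-OHT, 2 K1 libraries given 200 nM 4-OHT, and 1 K1 library labelled as ethanol. ChIP-seq with an antibody to the oestrogen receptor was made from a single K1-CDA-ER clone after 3 h of 200 nM 4-OHT, with 1 ChIP library from pooled replicates and 1 input library. The KLF1-ER (wild type) ChIP values came from earlier libraries of the authors in K1 cells carrying KLF1-ER, which are not among these samples. Each protein was thus measured in its own libraries. A difference between their concentrations cannot be told apart from a difference between those libraries, depth included.

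Both kinds of value were summaries made by the authors. Each gene had 1 mean RNA level, in log2 CPM (read counts scaled to library size), taken over all libraries of their fit and identical in both RNA tables. Each ChIP site had 1 concentration for KLF1-ER and 1 for KLF1-E339K-ER, which is the log2 of a normalised read count. No value had a standard deviation or replicate values behind it here, the depth is unknown, and no difference below was tested. Levels could not be divided by cell line or treatment. Since the KLF1-ER table gives the same means, they may also take in RNA libraries of KLF1-ER cells that are not among these samples, and the libraries of the fit are not listed in the sources used here. In such bulk libraries, fewer cells of a type and less RNA per cell cannot be told apart.

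The level of nascent RNA set the 7 measured genes far apart. Levels between genes are compared per kb of the listed gene length. It is not known whether reads in introns were counted, and division by this length lowers long genes most. Over 10532 matched genes the median ratio of this length to the annotated genomic span was 1, and 80.9% lay within 5% of the span. Among the 7 genes Cish departed from it, with a listed length of 5273 bp and a span of 6759 bp. Epor had the highest level of the 7, at 6.09 log2 CPM per kb, which was percentile 98.8 of all genes. Pim1 followed at 5.64 log2 CPM per kb, at percentile 98.2. Both are short genes, with listed lengths of 4678 bp and 4415 bp, and both were also high without the length correction, at 8.31 and 7.78 log2 CPM.

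Kit came next in this order, 5.04 log2 units per kb below Pim1. Its level was 6.95 log2 CPM, at percentile 80.4 of all genes, but 0.60 log2 CPM per kb, at percentile 46, because its listed length was 81735 bp. Jak2 had a level of 5.50 log2 CPM, at percentile 53.8, and of -0.44 log2 CPM per kb, at percentile 30.1. The receptor Epor had 6.09 log2 CPM per kb against -0.44 for the kinase it uses. Without the length correction these levels were 8.31 and 5.50 log2 CPM.

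Of the STAT5 pair, Stat5b had the higher listed level. Stat5b had 4.70 log2 CPM, or -1.43 log2 CPM per kb, at percentile 19.5. Stat5a, its neighbour on chromosome 11, had 1.20 log2 CPM, or -3.49 log2 CPM per kb, at percentile 8.03. Stat5a thus lay 2.06 log2 units per kb below Stat5b. Cish, a STAT5 target whose product blocks docking of STAT5 on the receptor, had the lowest level of the 7, at -1.42 log2 CPM, or -3.82 log2 CPM per kb, at percentile 6.66 of all genes. Without a spread between libraries it cannot be said which neighbours differ. The RNA levels of Lyn, a SRC family kinase downstream of both receptors, and of the inhibitors Socs1 and Socs3 were not analysed here.

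**Figure D1:**
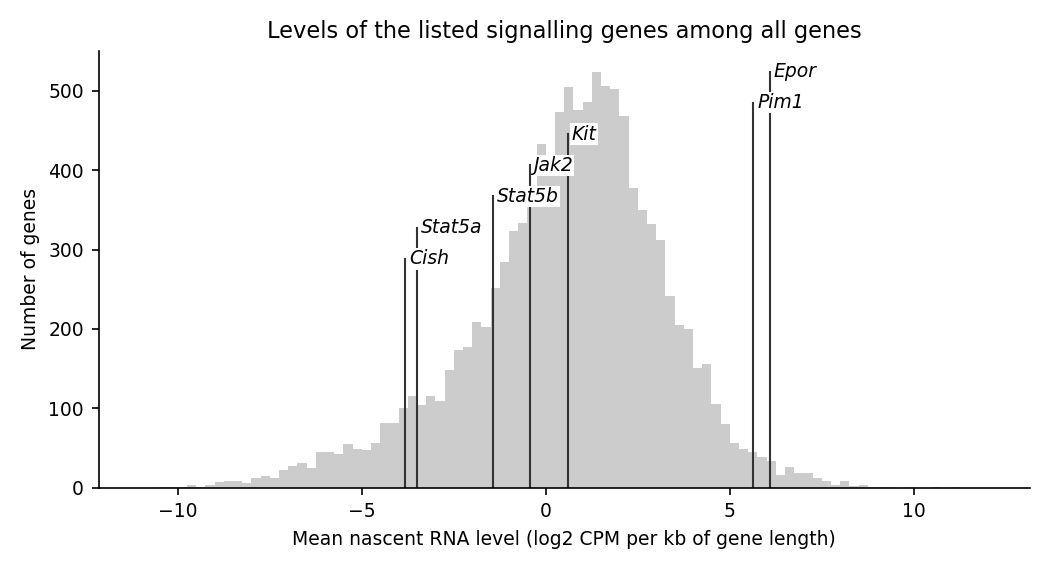
Histogram of the mean nascent RNA level of all 11364 genes in log2 CPM per kb of listed gene length, with a vertical line for each of the 7 measured genes (line heights differ only to keep the names apart). Epor (6.09) and Pim1 (5.64) lie in the upper tail, Kit (0.60) and Jak2 (-0.44) nearer the middle, and Stat5a (-3.49) and Cish (-3.82) in the lower tail.

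The identity of the cells was checked on marker genes. Of 20 erythroid markers, 19 had a row, with a median of 3.09 log2 CPM per kb at percentile 85 of all genes. They include Epor itself and Klf1, whose level of 5.09 log2 CPM per kb is a mean over lines with and without a transgene. Gata1, the leading erythroid transcription factor, was highest among them per kb, at 6.68 log2 CPM per kb. Alas2, the first enzyme of haem synthesis in red cells, was lowest at 0.75 log2 CPM per kb. Of the 8 megakaryocyte markers 3 had a row, with a median of 1.08 log2 CPM per kb at percentile 54.7, from Itga2b at 1.25 to Vwf at -1.78. Of 7 granulocyte or macrophage markers 4 had a row, with a median of -1.05 log2 CPM per kb, from Elane at -0.16 to Spi1 at -3.86. Of 4 stromal markers 3 had a row, with a median of -3.80 log2 CPM per kb, from Col3a1 at -0.73 to Col1a1 at -5.66. None of the 6 mast cell, 6 lymphoid or 5 hepatocyte markers had a row, so those levels were not analysed here.

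To ask where KLF1-ER and KLF1-E339K-ER bound near these genes, sites were counted as higher for 1 protein where the log2 concentrations differed by at least 1, which is 2-fold. The KLF1-E339K-ER concentration was the higher at 10 of the 16 sites, and such sites made up 61.5% of all 5551. KLF1-ER was the higher at 2 of the 16, against 28.7% of all sites. At the other 4 sites the concentrations were less than 2-fold apart, against 9.84% of all sites. The share with higher mutant concentration, 62.5%, was thus close to that of the whole peakset. The peakset joins sites called for either protein, and the paper found few of them occupied by both. A site called for 1 protein alone was listed because of that protein, so its direction was largely set by how sites were chosen. This holds for every direction given below. The mutant-higher sites were all 3 Kit sites, both Jak2 sites, the Stat5b site and 4 of 7 Pim1 sites. Both sites with higher wild type concentration belonged to Pim1. The 4 sites less than 2-fold apart were that of Epor, both of Stat5a and 1 of Pim1. The Stat5a site at the TSS was just below this cut, 1.87-fold higher for the mutant.

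At 5 of the 16 sites the KLF1-ER concentration was -0.09, the lowest value listed in its column, which 1424 sites (25.7%) shared. There the size of the difference is only a bound, so no fold is given. Low KLF1-ER values stand for few normalised reads. All 2884 values of 3 or below were whole multiples, within 0.01 log2 units, of a step of 0.47 normalised reads, with the lowest value at 2 steps. Among the 11 sites where both values were above the lowest, KLF1-E339K-ER was the higher at 5 and KLF1-ER at 2. Of all 3981 sites with both values above the lowest, 50% were higher for KLF1-E339K-ER and 36.3% for KLF1-ER.

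**Figure D2:**
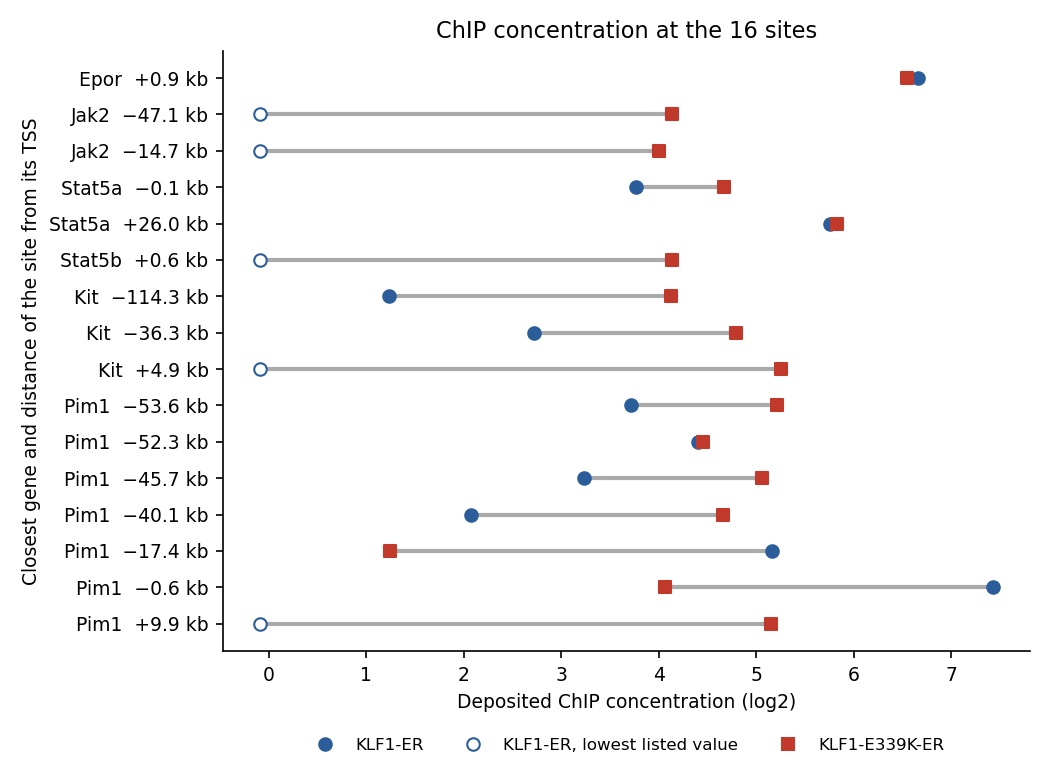
Log2 ChIP concentration of KLF1-ER (blue circles) and KLF1-E339K-ER (red squares) at each of the 16 sites, named by closest gene and distance of the site's midpoint from its TSS (minus is upstream). Open circles mark the lowest listed KLF1-ER value, -0.09. The squares lie to the right at 13 sites and the circles at 3, which are 2 Pim1 sites, 17.4 kb and 0.604 kb upstream, and, by 1.08-fold, the Epor site.

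**Figure D3:**
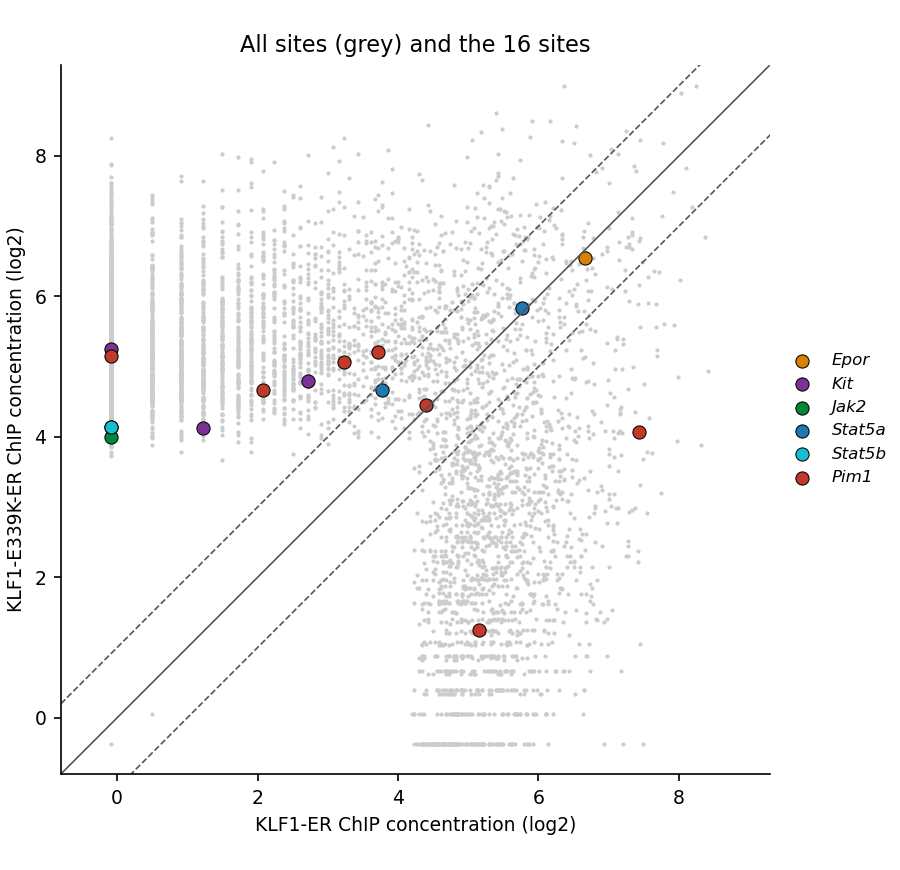
KLF1-E339K-ER against KLF1-ER log2 concentration at all 5551 sites (grey points), with the 16 sites coloured by gene. The solid line marks equal concentrations and the dashed lines 2-fold differences. The points of 1 Jak2 site and the Stat5b site coincide. The Epor site and 1 Stat5a site lie near the solid line at high values of both proteins, and the Pim1 site near its TSS lies far to the right at 7.43 for KLF1-ER and 4.07 for KLF1-E339K-ER.

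Stretches of 101 bases around the midpoints of 7 of these sites are given here, 1 or 2 for each gene, to show which of them hold the letters in which the proteins' recognition sequences differ. All were read from mouse genome NCBIM37 (mm9), the build of the sites, on the plus strand, 5′ to 3′. The capitals mark matches, on either strand, to a 9-base motif with a purine or a pyrimidine at position 5. The purine motif was spelled NGGGAGGGG, NGGGAGTGG, NGGGGGGGG or NGGGGGTGG. The pyrimidine motif was spelled NGGGCGGGG, NGGGCGTGG, NGGGTGGGG or NGGGTGTGG. Matches of both motifs can overlap each other and themselves. The purine motif joins A and G at position 5. For a probe with A there, the paper reports roughly equal in vitro affinities and no strong binding by either protein. The Stat5a and Stat5b windows lie on chromosome 11 and the Pim1 windows on chromosome 17.
Epor, in intron 1, chr9:21767036-21767136: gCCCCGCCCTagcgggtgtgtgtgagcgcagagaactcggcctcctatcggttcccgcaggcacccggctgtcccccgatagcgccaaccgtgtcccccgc
Kit, in intron 1, chr5:75975826-75975926: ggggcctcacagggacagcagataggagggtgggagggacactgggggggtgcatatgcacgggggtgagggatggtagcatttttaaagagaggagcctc
Jak2, upstream, chr19:29311537-29311637: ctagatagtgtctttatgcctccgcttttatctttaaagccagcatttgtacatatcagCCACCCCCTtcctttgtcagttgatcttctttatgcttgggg
Stat5a, at the TSS, chr11:100721608-100721708: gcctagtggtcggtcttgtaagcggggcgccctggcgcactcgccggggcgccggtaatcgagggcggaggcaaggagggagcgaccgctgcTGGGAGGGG
Stat5b, in intron 1, chr11:100711262-100711362: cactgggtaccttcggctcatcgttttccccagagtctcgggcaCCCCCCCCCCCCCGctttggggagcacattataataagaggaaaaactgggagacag
Pim1, near the TSS, chr17:29627336-29627436: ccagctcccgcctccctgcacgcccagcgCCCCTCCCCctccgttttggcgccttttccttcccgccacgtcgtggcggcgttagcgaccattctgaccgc
Pim1, downstream, chr17:29637888-29637988: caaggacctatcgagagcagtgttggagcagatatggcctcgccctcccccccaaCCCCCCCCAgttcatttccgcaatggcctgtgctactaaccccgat

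The 7 windows were chosen after the values were seen and do not stand for all 16 sites. That of Epor carried a pyrimidine match and no purine match. Those of Jak2, Stat5a, Stat5b and both Pim1 sites carried a purine match and no pyrimidine match. The Kit window carried neither.

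The Epor gene, on the minus strand of chr9:21763343-21768020, had 1 site, chr9:21766889-21767284, with its midpoint 933.5 bp downstream of the TSS in intron 1. It was strong for both proteins. The concentrations were 6.66 for KLF1-ER and 6.55 for KLF1-E339K-ER, at percentiles 96.7 and 92 of all sites. The difference was 1.08-fold. The window shown above has a pyrimidine match, AGGGCGGGG on the minus strand, centred 45 bp from the midpoint, and the whole site held 3 pyrimidine matches and 1 purine match.

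Kit, on the plus strand of chr5:75970941-76052747, had 3 sites, all with higher KLF1-E339K-ER concentration. The closest, chr5:75975718-75976035, lay 4860.5 bp downstream of the TSS in intron 1, with 5.25 for KLF1-E339K-ER and the lowest listed value for KLF1-ER. Neither motif was found in its 318 bp. Its sequence did hold 2 matches to the GATA motif, which was spelled AGATAA or TGATAA and searched on both strands. In whole sites a GATA match was found at 32.3% of all sites and at 9 of the 16. The other Kit sites lay between genes upstream. At 36.3 kb upstream, chr5:75934504-75934840, the concentrations were 2.72 for KLF1-ER and 4.79 for KLF1-E339K-ER, which is 4.2-fold higher for the mutant. Its central 101 bases held a purine match, GGGGAGGGG, next to a pyrimidine match, GGGGCGGGG. At 114 kb upstream, chr5:75856519-75856946, the concentrations were 1.23, which is only 5 steps, and 4.13, or 7.46-fold higher for the mutant, and its central 101 bases held neither motif. All 3 Kit sites were thus among the 61.5% of all sites with higher mutant concentration.

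Jak2, the kinase bound to EPOR, lies on the plus strand of chr19:29326318-29387570. Its 2 sites were between genes upstream, 14.7 kb and 47.1 kb from the TSS, at chr19:29311427-29311747 and chr19:29279052-29279402. KLF1-E339K-ER concentrations were 4.00 and 4.14. These are low values for that protein, at percentiles 26.9 and 28.8 of all sites, and KLF1-ER was at its lowest listed value at both. The nearer site held the purine match AGGGGGTGG centred 13 bp from its midpoint. No site lay within 10 kb of the Jak2 TSS. For Lyn no site had its TSS as the closest, and the nearest site was 158 kb from the Lyn start, closest to Rps20, with 1.72 for KLF1-ER and 5.76 for KLF1-E339K-ER.

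The adjacent genes Stat5a and Stat5b are transcribed away from each other on chromosome 11, and each had a site beside its TSS. The Stat5a site, chr11:100721505-100721812, was centred 139.5 bp upstream of the TSS used by the authors, within intron 1 of the longer annotated transcript. Its concentrations were 3.77 for KLF1-ER and 4.67 for KLF1-E339K-ER, a 1.87-fold difference. The Stat5b site, chr11:100711153-100711471, was centred 587 bp downstream of its TSS in intron 1. KLF1-E339K-ER was 4.14 there and KLF1-ER was at its lowest listed value. Its central run of C residues, printed above, gave 6 overlapping purine matches on the minus strand, all within 3 bp of the midpoint.

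The second Stat5a site lay 26 kb downstream of the TSS, chr11:100747610-100748055, past the annotated end of Stat5a and in an untranslated exon of the neighbouring gene Stat3. Its concentrations were 5.76 and 5.83, or 1.05-fold apart, and it held neither motif. Of 3 sites in the Stat5a and Stat5b region, 1 was therefore at least 2-fold higher for the mutant and 2 were less than 2-fold apart.

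Pim1 encodes a serine/threonine kinase that promotes survival and is switched on by STAT5. It had 7 sites. Only 26 of the 3670 genes with a site (0.708%) had as many or more, and the median was 1. It was also the gene among the 10 where both directions occurred. The site next to its TSS, chr17:29627233-29627540, was centred 603.5 bp upstream of the TSS used by the authors and was the strongest of the 16 for KLF1-ER, at 7.43, which was percentile 99.3 of all sites. KLF1-E339K-ER was 4.07 there, at percentile 27.8, or 10.3-fold lower. The other site with this direction lay 17.4 kb upstream, with 5.16 for KLF1-ER and 1.25 for KLF1-E339K-ER, or 15-fold lower. Both lie in intron 1 of the annotated long intergenic RNA Gm16912.

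The remaining 5 Pim1 sites included 4 upstream, 40.1 to 53.6 kb from the TSS, in a stretch of 13.9 kb between genes. From the farthest to the nearest, KLF1-ER concentrations were 3.72, 4.40, 3.23 and 2.08, and KLF1-E339K-ER concentrations were 5.21, 4.46, 5.06 and 4.66. The mutant was the higher by 2.81-fold, 3.56-fold and 5.98-fold at 3 of these, and the concentrations were 1.04-fold apart at the second. The last site lay 9.95 kb downstream of the TSS, chr17:29637786-29638091, past the end of the gene, with 5.15 for KLF1-E339K-ER and the lowest listed value for KLF1-ER. The Pim1 TSS was thus flanked by sites of opposite direction, with wild type higher at both sites within 17.4 kb upstream, and mutant higher at 3 of the 4 sites farther upstream and at the downstream site.

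**Figure D4:**
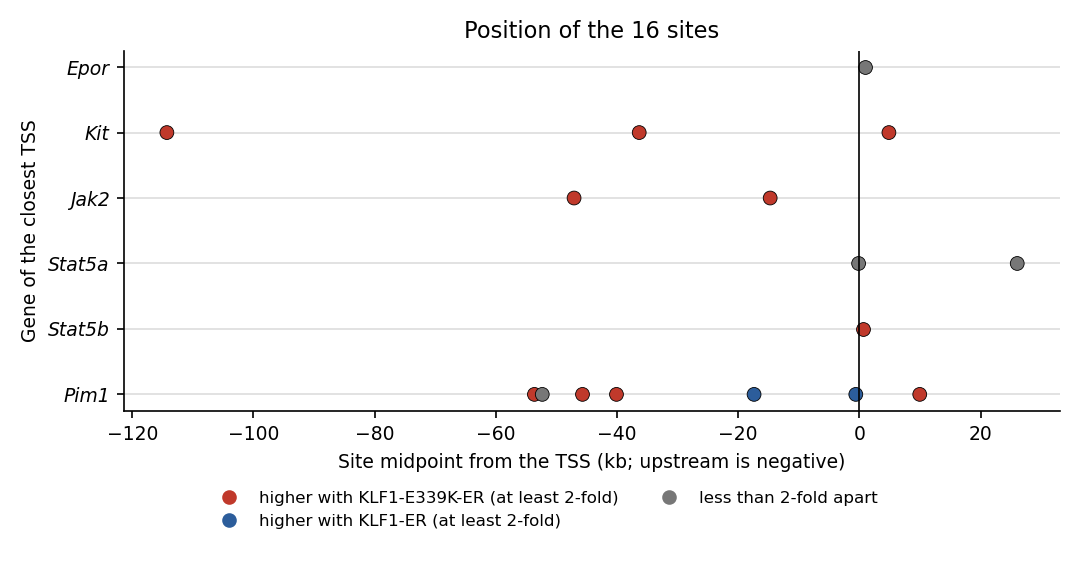
Distance in kb of each of the 16 site midpoints from the TSS of its closest gene (minus is upstream), 1 line per gene, coloured by which protein had the higher concentration by at least 2-fold. Blue points occur only for Pim1, 17.4 kb and 0.604 kb upstream of its TSS, and 4 Pim1 points lie together 40.1 to 53.6 kb upstream.

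The Pim1 promoter is given because the site near its TSS overlaps it. It was 1 of 2 Pim1 entries of the RefSeq promoter table (GRCm38.p6), which holds 300 bases around each gene start, and the same letters occur once on chromosome 17 of mm9, at chr17:29627480-29627779 on the plus strand. The site covers 61 of these 300 bases. The capitals mark 4 pyrimidine matches, of which 1 lies in the bases covered by the site, and no purine match was found in it. The other Pim1 entry held 1 purine match and overlapped no site. A Stat5a entry overlapped the Stat5a site near the TSS by more, 265 bases, with 2 purine matches and no pyrimidine match, and part of it is printed above.
Pim1 promoter: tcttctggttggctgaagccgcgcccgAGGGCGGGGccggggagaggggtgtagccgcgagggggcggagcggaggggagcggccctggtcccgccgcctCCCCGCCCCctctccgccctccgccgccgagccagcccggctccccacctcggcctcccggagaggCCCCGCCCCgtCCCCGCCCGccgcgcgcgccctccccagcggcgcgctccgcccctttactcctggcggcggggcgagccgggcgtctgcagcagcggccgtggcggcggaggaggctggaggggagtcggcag

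For comparison, 29.7% of all 32851 RefSeq promoters held a pyrimidine match and 22.6% a purine match. Promoters were found for 9 of the 10 genes, and the promoter of Lyn was not among them. These genes had 13 promoter entries, of which 6 held a pyrimidine match and 8 a purine match. The 2 Kit entries are nearly the same stretch, and by gene the counts were 5 and 7 of 9. A gene was counted if any of its entries matched. The shares over all promoters are by entry, so they are not a background for these counts by gene. The 4 purine matches in the Cish promoter and the 3 in the Socs3 promoter were the most purine matches of the 9, and neither promoter overlapped a site.

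Of the feedback inhibitors, none was the closest TSS of a site. The site nearest to the Cish start lay 73.8 kb away, with 5.39 for KLF1-ER and 7.65 for KLF1-E339K-ER, and its closest TSS was that of another gene. That nearest to Socs1 lay 49.9 kb away, closest to Rmi2, with 4.86 and 1.64. That nearest to Socs3 lay 55.4 kb away, closest to Tha1, with 6.12 and 0.39. These distances were measured from the start of the annotated gene. CISH, SOCS1 and SOCS3 all damp JAK-STAT signals, and no site lay within 10 kb of the start of any of them.

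The 16 sites lay farther from a TSS than those of the peakset as a whole. The median distance of the 16 sites from the closest TSS was 21.7 kb, against 2.94 kb for all sites. Within 10 kb of the TSS lay 6 of the 16, against 67.6% of all sites. Of these 6 sites, 3 were higher for KLF1-E339K-ER (Kit, Stat5b and the downstream Pim1 site), beside 60.4% of all sites within 10 kb. KLF1-ER was higher at 1, the Pim1 site near the TSS, beside 28.8%. Epor and the Stat5a site at the TSS made up the other 2.

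Motifs were then counted in the central 101 bases of each site. The purine motif occurred at 8 of the 16 sites, against 35.5% of all sites, and the pyrimidine motif at 4 of 16, against 35.3%. Within 100 bp of the midpoint the pyrimidine motif occurred at 7 of the 16, 43.8% against 47.2% of all sites, so its share was near that of the peakset in the wider window. Both occurred together at 2 sites, the Kit site 36.3 kb upstream and the Pim1 site 45.7 kb upstream, and neither at 6. Over all sites, both motifs were found at 13% and neither at 42.2%. Of the 10 sites with higher mutant concentration, 5 held the purine motif, against 45.8% of all such sites, and 2 held the pyrimidine motif, against 22.8%. Of the 2 sites with higher wild type concentration, 1 held the pyrimidine motif, against 60.7% of all such sites, and the other held the purine motif, against 16%. The latter was the site near the Pim1 TSS, where the central 101 bases held the purine match GGGGAGGGG alone and the whole site of 308 bp held 2 matches of each motif. That purine match has A at position 5. The Pim1 site 52.3 kb upstream, where both proteins had like concentrations, held 7 overlapping purine matches and no pyrimidine match. The GATA motif, bound by the erythroid factor GATA1, was searched in addition to the planned motifs. It occurred at 6 of the 16 sites, against 14.5% of all sites. A match is a description of these letters and does not show binding.

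The wider pathway was described from 7 lists of genes around these receptors, 86 genes in all. Of these, 62 had a row in the RNA tables, with a median of 0.80 log2 CPM per kb against 0.82 for all genes. Within 10 kb of a TSS from these lists lay 37 sites, at 28 genes. KLF1-E339K-ER was higher at 23 of these 37 sites and KLF1-ER at 7, beside 60.4% and 28.8% of all sites within 10 kb. The share of these 37 sites with higher mutant concentration, 62.2%, was near that of the peakset, and the share with higher wild type concentration, 18.9%, was below it. This difference was not tested.

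Among ligands and receptors, 5 of 12 genes had a row. Tfrc, the transferrin receptor that brings in iron, was highest at 3.50 log2 CPM per kb, and Csf2rb2, a cytokine receptor chain, lowest at -0.46. The 2 iron-related receptors were the ones with sites, and their directions differed. Tfr2, which associates with EPOR, had a site 66 bp upstream of its TSS with 4.82 for KLF1-ER and 1.49 for KLF1-E339K-ER. Tfrc had a site 31.5 bp downstream with 3.61 and 4.69.

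In the JAK and STAT family, 6 of 7 genes had a row, from Jak1 at 0.48 log2 CPM per kb to Stat2 at -1.88. Stat3 had a site 417.5 bp downstream of its TSS that was higher for KLF1-E339K-ER, with 0.91 for KLF1-ER and 5.87 for the mutant. At the Stat5a site at the TSS the mutant was also the higher, by 1.87-fold, which is below the 2-fold cut.

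Of 20 further feedback inhibitors and regulators, 15 had a row, with Sh2b3 highest at 3.61 log2 CPM per kb and Cblb lowest at -2.82. Sh2b3 encodes LNK, an adaptor that restrains JAK2. It had a site 450 bp upstream of its TSS with like concentrations, 5.60 for KLF1-ER and 5.36 for KLF1-E339K-ER. A second site, 2793.5 bp downstream, had 6.74 for KLF1-E339K-ER and the lowest listed value for KLF1-ER. Socs5, Pias1 and Pias3 also had a site with KLF1-ER at its lowest listed value, where KLF1-E339K-ER was 5.67, 5.64 and 5.98. Pias1 and Pias3 inhibit STAT proteins, and each had another site near its TSS where the proteins were less than 2-fold apart. Pias3 also had a site 437.5 bp downstream, with 4.95 and 6.36. Ptpn1, a tyrosine phosphatase that acts on JAK2, had 0.91 for KLF1-ER and 6.61 for KLF1-E339K-ER at a site 443 bp downstream. Cbl, a ubiquitin ligase for KIT, had the 1 site of this list within 10 kb that was at least 2-fold higher for KLF1-ER. The concentrations there were 4.34 for KLF1-ER and 1.62 for KLF1-E339K-ER.

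Of 8 further non-receptor tyrosine kinases, mostly of the SRC and TEC families, 3 had a row, from Yes1 at -0.71 to Tec at -3.93 log2 CPM per kb, and none had a site within 10 kb. Of 18 adaptors and RAS-MAPK genes 16 had a row, from Nras at 3.58 to Gab2 at -2.05 log2 CPM per kb. KLF1-E339K-ER was higher at 6 of their 9 sites within 10 kb, which is near the 60.4% of all such sites. At Grb2, Shc1 and Mapk3 the KLF1-ER value was the lowest listed, with KLF1-E339K-ER at 4.48, 6.27 and 5.52. Sos1 had 1.23 for KLF1-ER and 4.54 for the mutant, Braf 1.23 and 4.44, and Plcg1 1.91 and 5.77. Shc1, the adaptor that links receptors to RAS, had a second site with 4.95 for KLF1-ER and 3.86 for KLF1-E339K-ER.

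Of 10 PI3K-AKT genes 8 had a row, from Pik3r2 at 3.72 to Pik3r1 at 0.30 log2 CPM per kb. Akt2 had a site 529.5 bp downstream of its TSS with 0.50 for KLF1-ER and 6.39 for KLF1-E339K-ER, and another 104.5 bp upstream with 4.65 for the mutant and the lowest listed KLF1-ER value. Pik3cb had 4.41 for the mutant, also against the lowest value. Pik3cd had the other direction, with 4.37 for KLF1-ER and 0.85 for KLF1-E339K-ER. Foxo3, a transcription factor that AKT keeps out of the nucleus, had both directions within 1 kb of its TSS, as Pim1 did over a longer stretch. Its site 30.5 bp downstream had 5.65 for KLF1-ER and 4.20 for the mutant, and its site 789.5 bp downstream had 1.50 and 5.73.

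Of 11 further genes regulated by these signals 9 had a row. Mcl1, a survival protein of the BCL2 family, was highest at 6.69 log2 CPM per kb, and Ccnd2 lowest at -5.74. The survival genes differed in direction. Bcl2l1, which encodes BCL-XL, had a site 324.5 bp downstream of its TSS with 0.50 for KLF1-ER and 5.87 for KLF1-E339K-ER. Mcl1 had a site 7276.5 bp downstream with 4.77 for KLF1-ER and -0.38, the lowest listed value, for KLF1-E339K-ER. Pim3, the relative of Pim1, had 2 sites with a KLF1-ER concentration of 1.91, where KLF1-E339K-ER was 4.60 and 7.56. The site 595.5 bp downstream of the TSS of Fam132b, which encodes the iron hormone erythroferrone, had 6.07 for KLF1-ER and 2.05 for KLF1-E339K-ER. Id1 had 2.91 and 5.84, and Egr1 2.82 and 4.43.

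**Figure D5:**
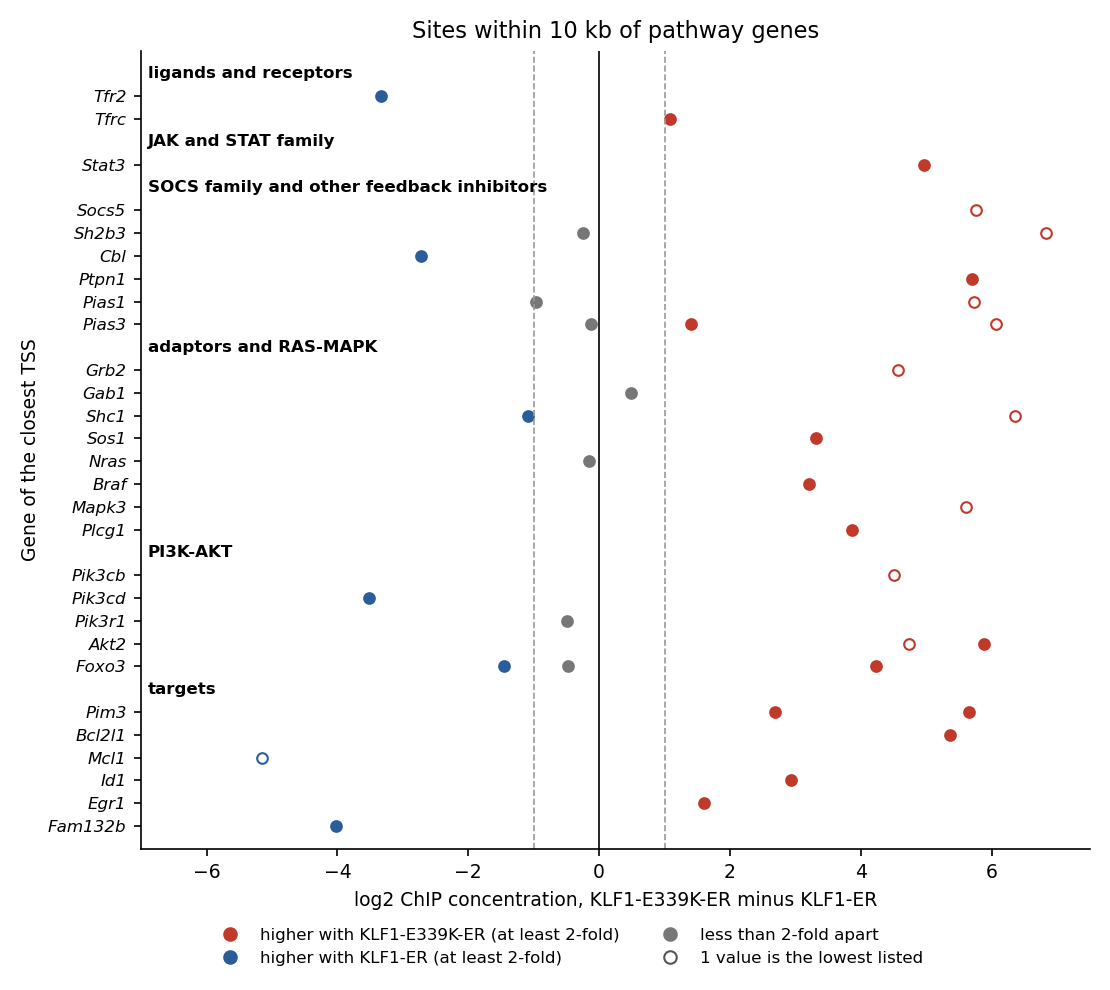
Difference in log2 ChIP concentration, KLF1-E339K-ER minus KLF1-ER, at each of the 37 sites within 10 kb of a pathway gene, grouped by list. Dashed lines mark 2-fold differences, and open circles mark sites where 1 value is the lowest listed and the size is a bound. Of the points beyond the dashed lines, 23 lie to the right, and the 7 to the left belong to Tfr2, Cbl, Shc1, Pik3cd, Foxo3, Mcl1 and Fam132b.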

How the data were processed

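Per the methods of the study and the submitters' processing notes, 4sU-RNA reads were mapped to mm9 with TopHat2 2.0.10 and TMAP and fitted with limma-voom, and the authors deposited a mean log2 CPM and a length for each gene. ChIP reads were mapped with TMAP, peaks were called with MACS2 and GEM, and the authors deposited log2 concentrations from DiffBind for a consensus peakset. The other columns hold their comparisons (log2 fold changes, t, p-values and adjusted p-values of each induced line for RNA, and fold, p-value and FDR for ChIP). These were not used. The gene annotation and counting tool are not given in the sources used here. Both RNA tables were joined on Entrez identifier, length and mean level, which matched for all 11364 genes. Genes of the lists were looked up by the symbols of the KLF1-ER table, then those of the other table, then the Entrez identifier. Percentiles were taken over all genes or all sites.

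A site belonged to the gene of its listed closest TSS. Positions were compared with GENCODE M1 (NCBIM37), and the intron number is that of the longest annotated transcript. Motif searches used exact matches on both strands and were tested on simulated data. Python 3.11.15, pandas 2.3.3, numpy 2.4.6, pysam 0.24.0 and matplotlib 3.10.9 were used. No test was made, because no values per library were at hand, and depth is unknown. Named genes were the 10 members, the pathway genes with a site within 10 kb that differed by at least 1 log2 unit, and the highest and lowest level of each list (markers included). Genes named only for their position at a site were named after the positions were seen. The members and lists were chosen with earlier results of these data known. Some genes of the lists and some sequences are not reported here.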

Additional observations from a re-analysis of the deposited data

How the results depend on the processing

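Of 18 alternatives, 7 gave a count within 1.5 times the reported one, and 11 did not or moved a median percentile. Of the 10 sites with higher mutant and the 2 with higher wild type concentration, 3 and 1 were left when only sites within 10 kb of the closest TSS were used, and 3 and 1 among 7 sites within 10 kb of an annotated gene body. With a larger concentration of at least 5, 4 and 2 were left. Without Pim1, an alternative chosen after seeing the data, 6 and 0 were left. These settings leave fewer sites by construction. At least 4-fold differences gave 8 and 2, and any difference 13 and 3. The shares of all sites at these thresholds are not given here. The median percentile of the 7 RNA levels, 53.8, was 30.1 per kb and 66 among the 11001 genes of at least 0 log2 CPM, where 6 of the 7 genes were left. The purine motif, found at 8 sites, was found at 9 within 100 bp of the midpoint and at 11 in whole sites. That is 56.2% and 68.8% of the 16 sites, against 48.2% and 58.4% of all sites. The pyrimidine motif, found at 4, was found at 7 and 9, which is 43.8% and 56.2% of the 16 sites against 47.2% and 58.6% of all sites. These wider windows hold more bases. No paired analysis was possible because the tables hold no values per library. Depth is unknown, so its limit on these values cannot be given.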
